A study of Homo sapiens with 12 samples.

Results

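Integrins, the cell surface receptors for extracellular matrix, and laminins, the 3-chain proteins of basement membranes, were followed gene by gene in IMR90 ER:RAS cells. Members were the protein-coding genes whose symbols begin with ITGA or ITGB followed by a number or by D, E, L, M, V or X, or with LAMA, LAMB or LAMC followed by a number. Of the 62069 genes in the table, 39 chosen by this rule are described, of which 37 encode integrin subunits (26) or laminin chains (11). The letters also take in ITGBL1, an integrin-like secreted protein, and ITGB3BP, a centromere protein that binds the tail of ITGB3, and those 2 are given on their own. In all, 28 of the 37 chains, 18 of them integrin subunits and 10 laminin chains, had enough counts to be tested.

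IMR90 cells are diploid human lung fibroblasts, and ER:RAS is a RAS oncoprotein fused to the hormone-binding part of the estrogen receptor, which 4-hydroxytamoxifen (4OHT) switches on. All 12 libraries came from this line at passage 13, grown for 7 days with a change of medium on day 4, and all carry ER:RAS. There were 4 groups of 3 libraries, namely non-induced cells (vector), cells given 100 nM 4OHT (vector/4OHT), and cells given the same 4OHT that also expressed 1 of 2 short hairpin RNAs against XPO7 (shXPO7_3/4OHT and shXPO7_5/4OHT). The labels give day 5 after induction for every library, and the name vector for both control groups follows the paper. They do not say whether the libraries of a group were separate cultures, so the p-values reflect library-to-library spread, part or all of which may be technical. The comparisons ask what RAS-induced senescence (OIS) and then depletion of XPO7 did to these transcripts. No group was given 4OHT without ER:RAS, so in the OIS comparison effects of the drug and of RAS cannot be told apart.

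Each integrin on the cell surface is 1 alpha and 1 beta subunit, and the pair sets which ligand is bound: collagens (ITGA1, ITGA2, ITGA10 and ITGA11, each with ITGB1), laminins (ITGA3, ITGA6 and ITGA7) or proteins that carry the peptide arginine-glycine-aspartate (RGD), such as fibronectin and vitronectin. Each laminin is 1 alpha, 1 beta and 1 gamma chain, wound together, and the alpha chain carries the main binding sites for receptors on cells. In fibroblasts, ITGB1 is the beta subunit shared by most receptors for matrix, while ITGB2 and its partners belong to leukocytes.

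Total counts ran from 28534141 to 60397769 per library. XPO7, the gene targeted by the shRNAs, was at 127 to 144 CPM (counts scaled to library size by TMM) in vector/4OHT, 26.4 to 28.7 CPM in shXPO7_3/4OHT and 50.8 to 54.0 CPM in shXPO7_5/4OHT. Fibroblast markers were abundant (11 of 11 tested, COL1A1 at 6402 to 10508 CPM), whereas some defining markers of other types were not detected: KRT5, SFTPC, PECAM1, CDH5 and CD3E had 0 counts in 12 of 12 libraries and PTPRC, the pan-leukocyte marker, had 0 to 2. Other markers of those lists had counts, with CLDN4 at 40 to 221, TEK at 166 to 521, TIE1 at 31 to 423, VWF at 60 to 191 and CORO1A at 126 to 309 per library. Libraries differed in how their counts followed the GC content of transcripts. Spearman correlations were taken across genes between GC content and the ratio of each library to the mean of the 3 vector/4OHT libraries. They were 0.57, 0.60 and 0.77 for 3 libraries (replicate T of shXPO7_3/4OHT and replicates T and B of shXPO7_5/4OHT). Members that overlap another gene (among them ITGA1 with PELO, ITGAE with HASPIN, LAMA5 with ADRM1, LAMB1 with DLD and ITGB3BP with PGM1) are uncertain where the counting could split reads. Some results touched by the GC trend are given with a correction for GC content and length, without those libraries, or both. Others are given as uncorrected values only.

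In OIS, 3 of 4 collagen-binding integrin subunits rose (ITGA1, ITGA2 and ITGA11) and ITGA10 fell. Of the RGD-binding subunits tested, ITGA5, ITGB3 and ITGB5 rose and ITGA8, ITGAV and ITGB8 were not called, and 4 of 5 laminin alpha chains fell. With edgeR's quasi-likelihood test at an adjusted p under 0.05, 17 of the 28 chains tested were called between vector/4OHT and vector, 8 higher and 9 lower. Induction moved the transcriptome so widely that 50.9% of the 15284 genes in the test were called (24.8% higher, 26.1% lower), a background against which the 60.7% of chains called has to be read. The median log2 fold change was 0.12 over the 28 chains and -0.01 over all genes. By class, 7 of 18 integrin subunits rose, among them ITGAX, which passed the filter on low counts only through the groups given 4OHT, and 3 fell (median 0.29), while 1 of 10 laminin chains rose and 6 fell (median -0.42).

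**Figure D1:**
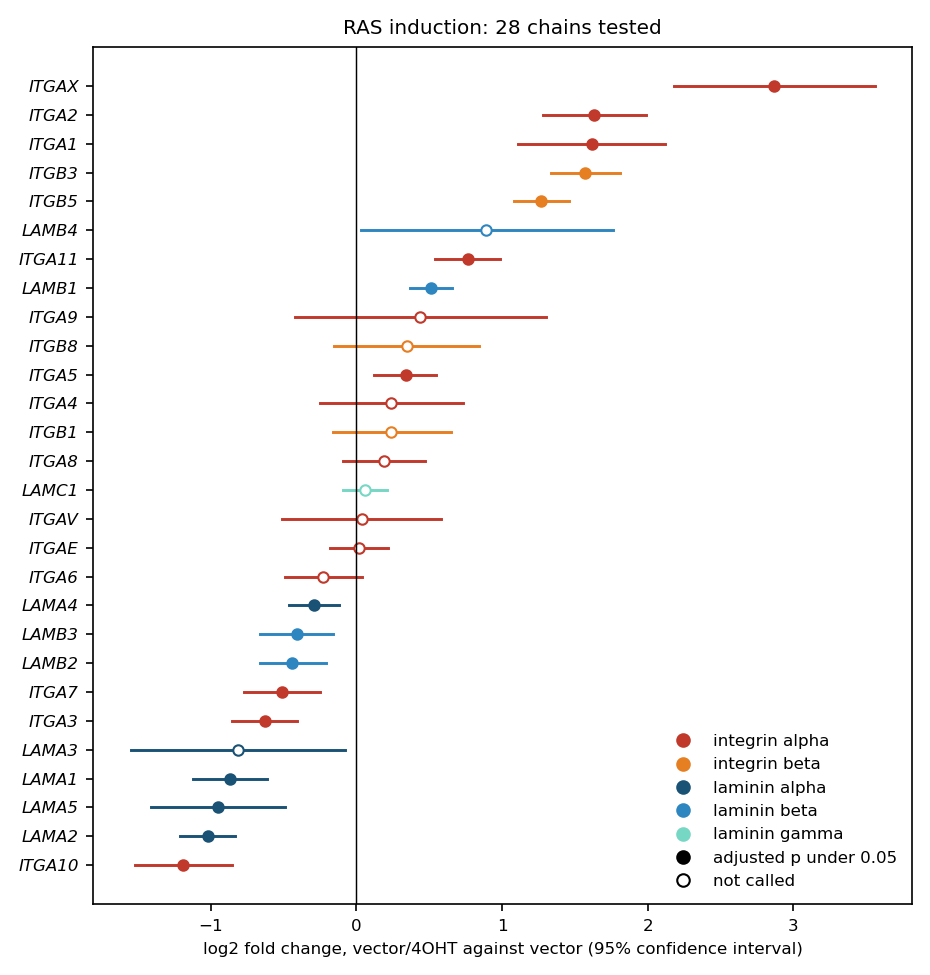
Log2 fold change of the 28 chains tested between vector/4OHT and vector, with 95% confidence intervals from edgeR's quasi-likelihood model (3 libraries per group); filled points were called, and colours give the class. ITGAX, ITGA2, ITGA1, ITGB3 and ITGB5 stand at the top with changes above 1 (ITGAX was tested only because of its counts in the groups given 4OHT), and ITGA10 and 3 laminin alpha chains (LAMA2, LAMA5 and LAMA1) at the bottom.

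The collagen receptors moved most among the abundant alpha subunits. ITGA2 (ENSG00000164171), a receptor for fibrillar collagens, was at 371, 446 and 534 CPM in vector and at 1431, 1460 and 1302 CPM in vector/4OHT. Every induced library was above every non-induced one, and the log2 fold change was 1.63 (standard error, SE, 0.16; edgeR's quasi-likelihood test, adjusted p = 4.03e-06). ITGA1 (ENSG00000213949), which prefers basement membrane collagen, rose from 62.4, 88.5 and 112.8 CPM to 281.5, 285.6 and 241.2 CPM, again without overlap (log2 fold change 1.62, SE 0.23; the same test, adjusted p = 9.59e-05). ITGA11 (ENSG00000137809), a collagen receptor of mesenchymal cells, rose by less, from 71.9, 70.4 and 58.9 CPM to 121.2, 109.1 and 112.6 CPM (log2 fold change 0.77, SE 0.10; adjusted p = 5.68e-05). ITGA10 (ENSG00000143127), the collagen receptor best known from cartilage, went the other way. It fell from 8.87, 7.34 and 7.57 CPM to 4.18, 3.47 and 2.82 CPM, a log2 fold change of -1.19 (SE 0.16; edgeR's quasi-likelihood test, adjusted p = 4.31e-05). So 3 of the 4 collagen-binding alpha subunits rose and 1 fell, beside 24.8% and 26.1% of all genes.

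To show what lies upstream of the chains that changed most, the promoters of 5 chains with a log2 fold change past 1 in OIS, and of ITGA11, the chain called in a knockdown, are given as the 250 bases before the start of the gene in RefSeq (GRCh38.p14), each 5′ to 3′ on the strand of the gene. Capitals mark matches to the GC box bound by SP1 (GGGCGG or CCGCCC), the E-box letters CAGGTG or CACCTG and CAGCTG, which E proteins such as TCF3 can bind, and the AP-1 letters TGAGTCA or TGACTCA, each searched on both strands; the letters were chosen with the values known.
ITGA2, chr5:52989102-52989351, + strand: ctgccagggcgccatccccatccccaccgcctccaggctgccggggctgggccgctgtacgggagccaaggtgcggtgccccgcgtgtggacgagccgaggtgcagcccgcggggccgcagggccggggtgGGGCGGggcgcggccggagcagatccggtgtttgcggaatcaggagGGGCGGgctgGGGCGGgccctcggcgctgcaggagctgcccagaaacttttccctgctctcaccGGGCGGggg
ITGA1, chr5:52787666-52787915, + strand: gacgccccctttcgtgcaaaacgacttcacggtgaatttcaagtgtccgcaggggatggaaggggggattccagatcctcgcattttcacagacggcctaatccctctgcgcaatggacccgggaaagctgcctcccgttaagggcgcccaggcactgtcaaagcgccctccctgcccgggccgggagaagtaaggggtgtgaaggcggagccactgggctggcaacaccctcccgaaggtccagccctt
ITGB5, chr3:124901419-124901668, - strand: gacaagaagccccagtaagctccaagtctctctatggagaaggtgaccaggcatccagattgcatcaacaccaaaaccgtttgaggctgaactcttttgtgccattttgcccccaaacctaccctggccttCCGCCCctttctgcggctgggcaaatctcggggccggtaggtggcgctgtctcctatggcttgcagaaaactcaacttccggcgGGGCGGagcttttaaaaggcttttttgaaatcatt
ITGA10, chr1:145910051-145910300, - strand: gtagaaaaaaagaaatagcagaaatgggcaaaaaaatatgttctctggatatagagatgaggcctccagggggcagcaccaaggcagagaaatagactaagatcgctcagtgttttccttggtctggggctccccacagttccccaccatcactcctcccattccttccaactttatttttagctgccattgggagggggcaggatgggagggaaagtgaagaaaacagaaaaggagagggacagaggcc
LAMA2, chr6:128882888-128883137, + strand: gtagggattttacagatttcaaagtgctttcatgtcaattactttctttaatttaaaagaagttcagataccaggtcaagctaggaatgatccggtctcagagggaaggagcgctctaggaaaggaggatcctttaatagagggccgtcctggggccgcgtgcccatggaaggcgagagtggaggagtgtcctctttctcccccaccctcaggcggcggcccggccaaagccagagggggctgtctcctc
ITGA11, chr15:68432164-68432413, - strand: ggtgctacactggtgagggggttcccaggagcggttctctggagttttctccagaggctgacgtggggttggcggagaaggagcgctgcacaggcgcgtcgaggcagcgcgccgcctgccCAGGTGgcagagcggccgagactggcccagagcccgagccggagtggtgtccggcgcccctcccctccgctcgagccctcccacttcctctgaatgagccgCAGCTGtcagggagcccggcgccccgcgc

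In that window ITGA2 held 4 GC boxes and ITGB5 held 2, ITGA11 held 1 match of each kind of E-box, and the windows of ITGA1, ITGA10 and LAMA2 held none of these letters. Among all 35116 promoters of that table, 42.6% held a GC box, 17.5% CAGGTG or CACCTG, 14% CAGCTG and 4.20% the AP-1 letters. Promoters of 26 of the 37 chains were in the table, and of these 13 held a GC box, 7 CAGGTG or CACCTG, 4 CAGCTG and 1 (LAMA3) the AP-1 letters. ITGB3 and ITGAX had no entry. GC content of the windows was 76.4% for ITGA2, 71.2% for ITGA11, 62.0% for ITGA1, 53.2% for LAMA2, 52.8% for ITGB5 and 48.4% for ITGA10. Of the chains that rose and are not shown, ITGA5 held 1 GC box and 1 CAGCTG (70% GC), and LAMB1 held 4 GC boxes (70.4% GC). Any part of these letters in the changes was not tested.

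Among the beta subunits tested, ITGB3 and ITGB5 rose, and ITGB1 and ITGB8 were not called. ITGB3 (ENSG00000259207), which with ITGAV forms the vitronectin receptor, was at 21.7, 17.7 and 18.5 CPM in vector and 58.9, 57.2 and 55.8 CPM in vector/4OHT. The groups were far apart relative to their spread, with a log2 fold change of 1.57 (SE 0.11; edgeR's quasi-likelihood test, adjusted p = 1.4e-07). ITGB5 (ENSG00000082781), the other abundant partner of ITGAV for vitronectin, rose from 289.2, 256.7 and 242.3 CPM to 625.1, 618.5 and 655.3 CPM (log2 fold change 1.27, SE 0.088; adjusted p = 1.55e-07). ITGAV itself was at 253 ± 68.7 CPM before and 260 ± 33.9 CPM after induction (SD, n = 3 each). Its log2 fold change was 0.04, with a 95% confidence interval from -0.51 to 0.58 that leaves room for a moderate change either way. ITGB8, a partner of ITGAV that binds latent TGF-beta, was not called at 0.35 (adjusted p = 0.226), and ITGB1, the most abundant subunit, was not called at 0.24 (95% confidence interval from -0.16 to 0.65, adjusted p = 0.288). Both were called with the replicate letter as a block, and ITGB8 also once GC content and length were corrected for. ITGA5, the fibronectin receptor, rose by a smaller 0.34 (adjusted p = 0.0139), and ITGA8, another RGD-binding alpha subunit, stayed low and was not called at 0.19 (adjusted p = 0.229 from the same test).

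The laminin-binding alpha subunits went down or were not called. ITGA3 fell from 311 ± 29.7 to 201 ± 3.51 CPM (SD, n = 3 each), a log2 fold change of -0.63 (edgeR's quasi-likelihood test, adjusted p = 0.000241). ITGA7, the laminin receptor prominent in muscle, fell by 0.51 (adjusted p = 0.00380), from 23.1 ± 1.06 to 16.2 ± 1.53 CPM (SD, n = 3 each). ITGA6 was at 181 ± 18.1 and 155 ± 3.38 CPM (SD, n = 3 each), a log2 fold change of -0.23 that was not called (adjusted p = 0.141) but was in 5 of 22 alternatives, among them the GC and length correction. The other beta partner of ITGA6, the hemidesmosome subunit ITGB4, was nearly absent with 1 to 15 counts per library.

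Leukocyte-type and remaining alpha subunits differed in level. ITGA4 was at a mean of 38.6 and 45.5 CPM in vector and vector/4OHT, and ITGAE at 17.8 and 18.0 CPM (n = 3 each). ITGAX had 3 to 6 counts per library in vector and 33 to 39 in vector/4OHT, a fitted log2 fold change of 2.87. It passed the filter on low counts only through the 3 groups given 4OHT, so a difference was built into its being tested and its value is given as a description. Its obligate partner ITGB2 had 0 to 3 counts in each of the 12 libraries. Summed over 8 leukocyte markers, the level was 5.30 to 6.21 CPM in vector and 5.03 to 5.41 CPM in vector/4OHT, most of it CORO1A, and CD3E was at 0. ITGA4, ITGA9 and ITGAE were not called, with log2 fold changes of 0.24, 0.44 and 0.02, and ITGA9 had only 8 to 17 counts per library in these groups.

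Not tested for want of counts were ITGA2B, the platelet subunit (0 to 6 counts per library), ITGAD (0 to 3), ITGAL (1 to 7), ITGAM (0 to 2), ITGB2 (0 to 3), ITGB4 (1 to 15), ITGB6 (0 to 6), ITGB7 (1 to 12) and LAMC3 (0 to 5). The highest level among these 9 genes in any library was 0.402 CPM, for ITGB4. Most of them are subunits of leukocytes, platelets or epithelia.

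**Figure D2:**
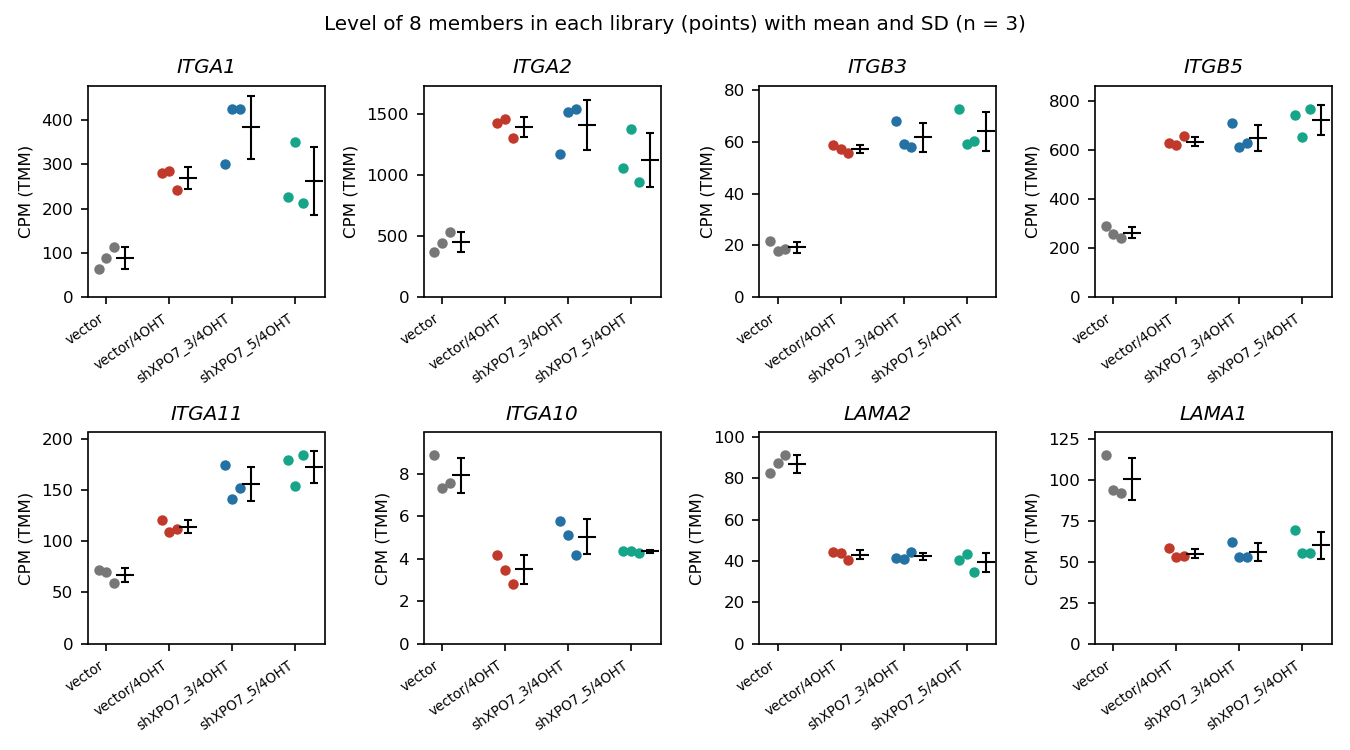
Level of 8 members in each library, in CPM after TMM scaling on a linear axis from 0, with 1 point per library and the mean and SD of each group of 3 in black. The 3 vector libraries stand apart from all libraries given 4OHT for each of the 8 genes, and for ITGA11 both knockdown groups lie above all 3 vector/4OHT libraries.

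Of the 5 laminin alpha chains, 4 fell. LAMA2 (ENSG00000196569), the alpha chain of muscle and mesenchymal laminins, was at 82.5, 87.5 and 91.3 CPM in vector and 44.5, 43.9 and 40.6 CPM in vector/4OHT. The groups lay far apart with little spread in either (log2 fold change -1.02, SE 0.089; edgeR's quasi-likelihood test, adjusted p = 1.25e-06). LAMA1 fell from 100 ± 12.7 to 54.9 ± 3.03 CPM (SD, n = 3 each; log2 fold change -0.87, adjusted p = 5.63e-05), and LAMA5, the broadly used epithelial and endothelial chain, from 35.8 ± 4.83 to 18.5 ± 5.23 CPM (log2 fold change -0.95, adjusted p = 0.00237). LAMA4, the alpha chain of vessels and mesenchyme, fell by only 0.29 (adjusted p = 0.00834). LAMA3, of which 17 to 30 counts per library were seen in vector and 12 to 14 in vector/4OHT, had a change of -0.81 that was not called (edgeR's quasi-likelihood test, adjusted p = 0.0620).

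The beta chains moved less and not in 1 direction. LAMB1, the beta chain of most laminins outside epithelia, rose from 475 ± 17.5 to 678 ± 24.0 CPM (SD, n = 3 each; log2 fold change 0.51, adjusted p = 3.18e-05, edgeR's quasi-likelihood test). LAMB2, its counterpart at synapses and in kidney, fell from 256 ± 19.8 to 189 ± 11.3 CPM (log2 fold change -0.44, adjusted p = 0.00355). LAMB3 fell by 0.41 (adjusted p = 0.0102), from 3.23 ± 0.203 to 2.42 ± 0.165 CPM (SD, n = 3 each). LAMB4 had only 6 to 21 counts per library in these groups and was not called at 0.89 (adjusted p = 0.0787). LAMC1, the gamma chain that nearly all non-epithelial laminins share, was at 994 ± 73.9 and 1035 ± 38.3 CPM (SD, n = 3 each), with a log2 fold change of 0.06 and a 95% confidence interval from -0.09 to 0.21.

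Levels per kb of exon show what these changes did to the mix of chains within each class. Before induction ITGA5 held 34.9% ± 4.78 (SD, n = 3) of the summed alpha subunit level and ITGA2 21.6% ± 2.98 (SD, n = 3). In vector/4OHT the order was reversed, with ITGA2 at 43.6% ± 1.11 and ITGA5 at 28.4% ± 1.51 (SD, n = 3 each), and the libraries of the 2 groups did not overlap for ITGA2. The share of the laminin receptors fell at the same time, for ITGA3 from 12.2% ± 1.68 to 5.08% ± 0.295 and for ITGA6 from 10.6% ± 0.632 to 5.86% ± 0.146 (SD, n = 3 each). Other alpha subunits lost share as well, such as ITGAV, from 11.7% to 7.8% with a log2 fold change in level of 0.04. The shares of ITGA1 and ITGAX rose beside that of ITGA2. For ITGA11 the libraries of the 2 groups overlapped, at 2.37% ± 0.348 before and 2.6% ± 0.142 after (SD, n = 3 each). Among beta subunits ITGB1 held 91.9% ± 2.29 before and 85.1% ± 0.976 after, with ITGB5 at 7.20% ± 2.05 and 13.1% ± 0.943 (SD, n = 3 each). LAMA4 went from 40.2% ± 2.33 to 51.6% ± 1.13 of laminin alpha chains while its own level fell, as the shares of LAMA2 (29.1% to 22.5%) and LAMA1 (21.8% to 18.8%) went down. LAMB1 went from 60.5% ± 2.66 to 74.8% ± 0.623 of the beta chains (SD, n = 3 each). Shares follow from the same counts as the tests above and were not tested again.

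**Figure D3:**
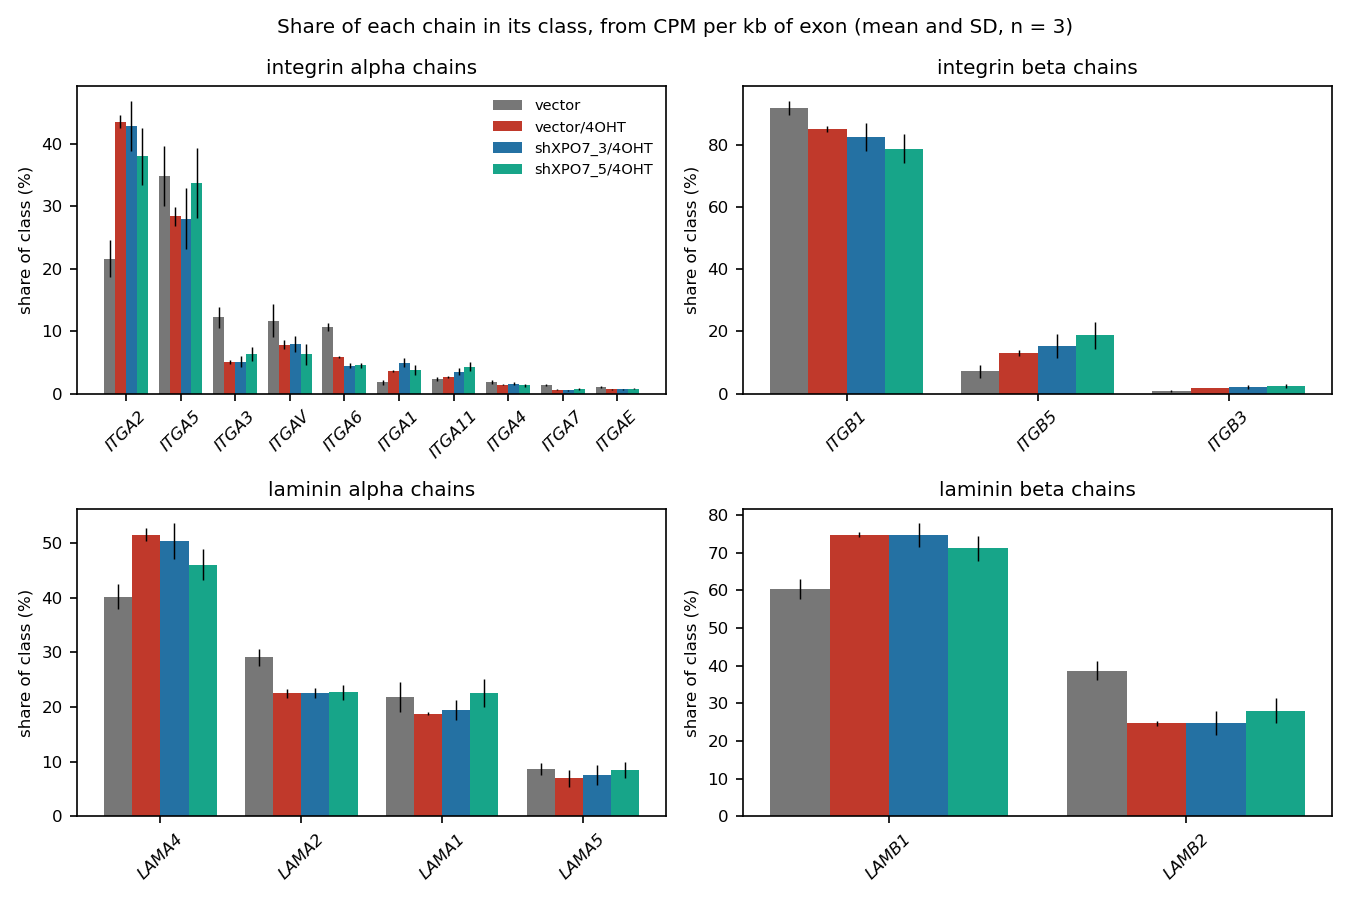
Share of each chain in the summed level of its class in percent, computed from CPM per kb of exon; bars are means and lines the SD of 3 libraries, and chains under 1% in all groups and the gamma chains are left out. ITGA2 passes ITGA5 on induction, ITGB5 gains beside ITGB1, and LAMA4 and LAMB1 make up more of their classes after induction than before.

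ITGBL1 and ITGB3BP, which match the letters but encode no chain, both fell in OIS. ITGBL1 went from 53.5, 54.4 and 57.7 CPM to 19.8, 18.9 and 18.2 CPM (log2 fold change -1.54, adjusted p = 4.48e-08, edgeR's quasi-likelihood test). ITGB3BP, also known as a centromere protein, went from 6.67, 9.52 and 9.61 CPM to 1.86, 2.59 and 2.16 CPM (log2 fold change -1.98, adjusted p = 1.20e-05).

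The machinery around these receptors moved in both directions in OIS. Of 34 adaptors and kinases of integrin adhesions, 10 rose and 15 fell (median log2 fold change -0.16). LIMS1, which links integrins to ILK signalling, rose by 1.35 while its relative LIMS2 fell by 2.25, and the kinase PTK2B fell by 1.95 at a low level. Of 15 other basement membrane components and laminin receptors tested, 4 rose and 6 fell (median -0.16): COL15A1 fell by 2.44, the proteoglycan HSPG2 (perlecan) fell by 1.88 and COL4A6 rose by 1.61. Among 19 integrin ligands other than laminins, 6 rose and 10 fell (median -0.21), with ICAM1, the ligand of leukocyte integrins, up by 2.74, osteopontin (SPP1) up by 2.45, and VCAM1 down by 2.11. Integrin membrane partners divided evenly, 4 up and 4 down of 11 (median -0.01), where the tetraspanin CD82 rose by 2.24, CAV1 fell by 1.27 and EMP2 fell by 0.97. Among 6 tested partners of hemidesmosomes and their laminin, 1 rose and 2 fell (median -0.35); anchoring-fibril collagen COL7A1 rose by 2.39, PLEC fell by 0.57 and CD151 fell by 0.40. All of these values are log2 fold changes called by edgeR's quasi-likelihood test at an adjusted p under 0.05. Over the 5 lists together 61 of 84 genes tested were called, where 50.9% of all genes were.

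Fibroblast markers moved beside these changes. Of 11, 7 fell and 0 rose in OIS, beside 26.1% and 24.8% of all genes, and their summed level went from 27293 to 31711 CPM in vector to 20005 to 21480 CPM in vector/4OHT, with DCN, a matrix proteoglycan, down by 3.37 on the log2 scale. The summed level of 7 epithelial markers, most of it CLDN4, went from 6.27 to 6.86 CPM to 1.72 to 2.12 CPM. Only 2 of the 7 had enough counts to be tested, and both fell, while KRT5 and SFTPC were at 0. The summed level of 6 endothelial markers was 15.7 to 16.1 and 14.8 to 17.2 CPM. Within the last sum TIE1 rose by 2.55 and TEK fell by 0.98 on the log2 scale, both called by edgeR's quasi-likelihood test. The part of these shifts in the results for integrins and laminins was not tested. In bulk RNA, fewer cells of a type and less RNA per cell cannot be told apart.

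With XPO7 knocked down in induced cells, 1 chain was called with 1 of the shRNAs. The 3 vector/4OHT libraries served as controls for both knockdown groups, so the comparisons share them. With shXPO7_3, edgeR's quasi-likelihood test called 0 of 28 chains, where it called 19 of all 15284 genes (0.124%). At an unadjusted p under 0.05 there were 6 chains, 4 higher (ITGA1, ITGA8, ITGA10 and ITGA11) and 2 lower (ITGA6 and ITGA7), or 21.4% of chains, beside 6.41% of all genes. DESeq2 called 1 chain (ITGA11) where it called 0.537% of all genes. With shXPO7_5 edgeR called 1 chain, ITGA11, and 0.589% of all genes. Here 6 chains had an unadjusted p under 0.05 (21.4%, beside 21.6% of all genes), of which ITGA11 was higher and ITGA6, ITGB1, ITGB8, LAMA4 and LAMB1 lower. DESeq2 called 3 chains, ITGA11, ITGA6 and LAMA4, and 2.83% of all genes. The median log2 fold change of the chains was 0.02 with shXPO7_3 and -0.01 with shXPO7_5, beside -0.00 and 0.01 over all genes.

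ITGA11 was the 1 chain called with an shRNA in edgeR's fit of the 4 groups over all 12 libraries, with filterByExpr and no block or correction. It was at 121.2, 109.1 and 112.6 CPM in vector/4OHT, at 174.7, 141.6 and 151.9 CPM with shXPO7_3 and at 179.3, 154.6 and 184.5 CPM with shXPO7_5. Every knockdown library lay above every vector/4OHT library. The log2 fold change was 0.60 with shXPO7_5 (SE 0.10; edgeR's quasi-likelihood test, adjusted p = 0.0265; adjusted p from 7.33e-05 to 0.584 over 22 alternatives, of which 15 called it). Leaving out replicate T or B of shXPO7_5/4OHT ended the call (adjusted p = 0.121 and 0.114), as did leaving out replicate T, A or B of vector/4OHT (0.0993, 0.138 and 0.118), with changes of 0.55 to 0.64. In the added fit without the 3 libraries that follow GC content most, where shXPO7_5/4OHT is 1 library taken to vary like the others, the change was 0.44 (adjusted p = 0.584). With shXPO7_3 it was 0.45 (SE 0.10; the same test, adjusted p = 0.156), in the same direction as induction, and with GC content and length corrected for it was called with both shRNAs, at 0.42 and 0.54.

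**Figure D4:**
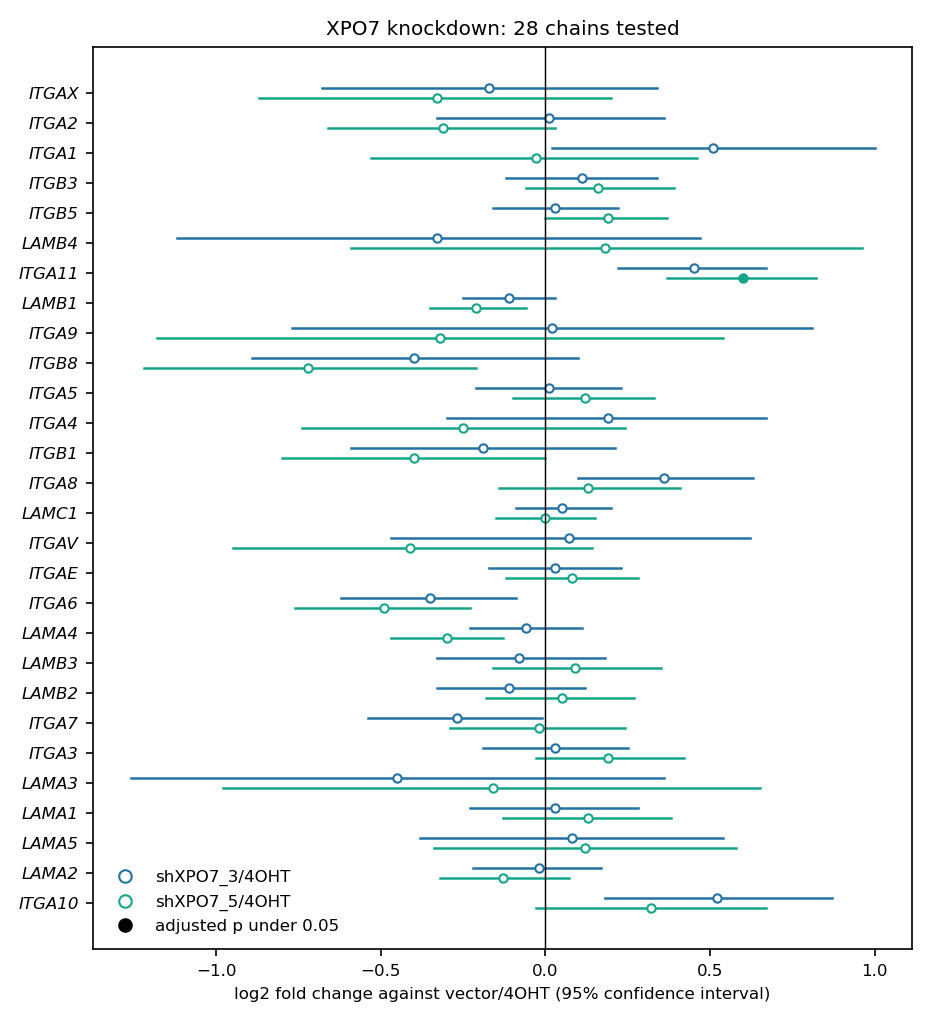
Log2 fold change of the 28 chains tested against vector/4OHT, with 95% confidence intervals from edgeR's quasi-likelihood model, for shXPO7_3/4OHT (blue) and shXPO7_5/4OHT (green), in the order of their change in OIS; filled points were called. ITGA11 with shXPO7_5 is the only filled point, and ITGA6 lies below 0 with both shRNAs without being called.

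ITGA6, the alpha subunit of a main laminin receptor of many cells, was lower with each shRNA and was not called in that same edgeR fit. Its levels were 155.1, 158.1 and 151.4 CPM in vector/4OHT, 102.9, 130.4 and 130.2 CPM with shXPO7_3 and 106.3, 129.2 and 95.2 CPM with shXPO7_5. No knockdown library reached the lowest vector/4OHT library. The log2 fold changes were -0.35 (adjusted p = 0.519) and -0.49 (edgeR's quasi-likelihood test, adjusted p = 0.0877), over alternatives from -0.41 to -0.25 and from -0.62 to -0.26. In the fit corrected for GC content they were -0.33 and -0.36 and both called, while without the 3 libraries of strongest GC trend they were -0.25 and -0.26 and neither was. Of 22 alternatives, 2 called it with shXPO7_3 and 6 with shXPO7_5, DESeq2 among the latter.

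ITGA1, the collagen receptor that had risen in OIS, differed between libraries of the same shRNA. It was at 300.3, 424.5 and 426.3 CPM with shXPO7_3 (replicates T, A and B) and at 226.3, 351.1 and 212.0 CPM with shXPO7_5, beside 241.2 to 285.6 CPM in vector/4OHT. Within each shRNA the lowest libraries are the ones that follow GC content most, and the log2 fold changes of 0.51 (edgeR's quasi-likelihood test, adjusted p = 0.746) and -0.03 (adjusted p = 0.928) became 0.50 and 0.24 after correction, the first of which was called. ITGA10, low after induction, was at 5.03 ± 0.819 CPM with shXPO7_3 and 4.34 ± 0.0695 CPM with shXPO7_5, beside 3.49 ± 0.679 CPM in vector/4OHT (SD, n = 3 each), with changes of 0.52 (adjusted p = 0.365) and 0.32 (adjusted p = 0.249). Other members with large changes in OIS, in the order shXPO7_3 and shXPO7_5, were ITGB3 at 61.8 ± 5.67 and 64.1 ± 7.65 CPM, ITGB5 at 648 ± 53.7 and 720 ± 61.6 CPM, and LAMA2 at 42.2 ± 1.83 and 39.4 ± 4.54 CPM (SD, n = 3 each). ITGA2 was at 1172, 1515 and 1547 CPM with shXPO7_3 and 1056, 1376 and 941 CPM with shXPO7_5, where replicates T and B were again the low ones. Their log2 fold changes with shXPO7_3 and shXPO7_5 were 0.11 and 0.16 for ITGB3, 0.03 and 0.19 for ITGB5, -0.02 and -0.13 for LAMA2, and 0.01 and -0.31 for ITGA2. In edgeR's fit of all 12 libraries without block or correction, none of these was called. For ITGA2 with shXPO7_5 the change ran from -0.48 to -0.02 over 22 alternatives.

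With shXPO7_5 the changes of the chains followed the GC content of their transcripts. Over the 28 chains, which share libraries and are not replicates, the Spearman correlation between GC content and log2 fold change was 0.56 with shXPO7_5 and 0.01 with shXPO7_3. The 5 chains of lowest GC content, ITGB8, ITGAV, ITGA1, ITGB1 and ITGA2 (37.8%, 38.3%, 38.8%, 40.0% and 40.2% GC), had log2 fold changes of -0.72, -0.41, -0.03, -0.40 and -0.31 there. In the corrected fit the correlation was 0.07, and 4 chains were called with shXPO7_5 (ITGA11 higher, ITGA6, ITGB8 and LAMA4 lower) beside 3.11% of all genes. The corrected fit called 4 chains with shXPO7_3 as well (ITGA1 and ITGA11 higher, ITGA6 and ITGB8 lower) beside 2.33% of all genes. Without replicate A of shXPO7_5/4OHT, the library of that group that follows GC content least, 9 of 29 chains tested were called, 2 higher and 7 lower, beside 23.0% of all genes. Without the 3 libraries of strongest GC trend, edgeR called 0 of 30 chains tested with shXPO7_3, beside 14 of all 16302 genes. At an unadjusted p under 0.05 there were 7 chains (23.3%), beside 1298 of all genes. That fit holds 1 library of shXPO7_5/4OHT. The median log2 fold change with shXPO7_5 was -0.01 over the chains there and -0.01 over all genes.

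In the edgeR fit of all 12 libraries without block or correction, 0 of 10 laminin chains were called with either shRNA. All genes were called at 0.124% with shXPO7_3 and 0.589% with shXPO7_5. At an unadjusted p under 0.05 there were 0 laminin chains with shXPO7_3 and 2 (20%) with shXPO7_5, beside 6.41% and 21.6% of all genes. DESeq2 and the fit corrected for GC content each called LAMA4 with shXPO7_5. LAMA4 was at 86.6, 98.2 and 82.9 CPM with shXPO7_5, below each of the vector/4OHT libraries (113.8, 108.7 and 107.3 CPM), but its log2 fold change of -0.30 was not called (edgeR's quasi-likelihood test, adjusted p = 0.0988), and with shXPO7_3 it was -0.06 (95% confidence interval from -0.23 to 0.11). LAMB1 was lower by a log2 fold change of -0.21 with shXPO7_5 (adjusted p = 0.153) and -0.11 with shXPO7_3 (adjusted p = 0.966). LAMC1 was at 0.05 and 0.00 with shXPO7_3 and shXPO7_5, with 95% confidence intervals from -0.09 to 0.20 and from -0.15 to 0.15. Beside the chains, ITGBL1 was at 13.9 ± 1.4 and 14 ± 1.38 CPM with shXPO7_3 and shXPO7_5 against 19.0 ± 0.843 CPM in vector/4OHT (SD, n = 3 each). Its log2 fold changes of -0.44 and -0.44 were not called in the edgeR fit without block or correction (quasi-likelihood test, adjusted p = 0.120 and 0.0590). Of 22 alternatives, 3 called it with shXPO7_3, namely DESeq2 and the correction with and without the replicate block. With shXPO7_5, 4 called it, DESeq2 among them and the corrected fits not. ITGB3BP was not called at 0.18 and -0.32.

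Set against each other, the shRNAs gave no call on any chain. Between shXPO7_5/4OHT and shXPO7_3/4OHT, edgeR's quasi-likelihood test called 0 of 28 chains and 0.0131% of all genes, DESeq2 called 0 chains and 0.177% of all genes, and 2 chains (7.14%) had an unadjusted p under 0.05, beside 11.9% of all genes. These were ITGA1 at -0.54 (95% confidence interval from -1.04 to -0.05) and LAMA4 at -0.24 (from -0.41 to -0.07). The correlation with GC content over the 28 chains was 0.71 here and 0.19 after correction.

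Of the 84 genes tested in the 5 lists, edgeR's quasi-likelihood test called 0 with either shRNA, 12 and 33 had an unadjusted p under 0.05 with shXPO7_3 and shXPO7_5, DESeq2 called 1 and 8, and the fit corrected for GC content called 8 and 9. The genes with an unadjusted p under 0.05 are 14.3% and 39.3% of the listed genes, beside 6.41% and 21.6% of all genes. Over all genes, edgeR called 0.124% and 0.589%, DESeq2 0.537% and 2.83%, and the corrected fit 2.33% and 3.11%. Replicates T and B of shXPO7_5/4OHT follow GC content (correlations 0.60 and 0.77). The part of that trend in these counts was not tested.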

How the data were processed

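RNA-seq libraries of IMR90 ER:RAS cells were analysed from the counts of reads per gene that the authors deposited, without normalization. Tools listed by the submitters in their processing notes were featureCounts 1.18.0, TopHat2 2.0.11 and CASAVA 1.8.4, on the build GRCh37 (hg19), for mRNA libraries from a stranded kit. How reads shared by overlapping or antisense genes were assigned is not given in the sources used here. No column was left unmapped, and 92 spike-in entries, all 0, were dropped. Total counts were 28534141 to 60397769.

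Genes were kept with edgeR's filterByExpr (15284 of 62069), scaled by TMM and fitted in R 4.3.3 with edgeR 4.0.16, as a quasi-likelihood model of the 4 groups over all 12 libraries without covariates. Benjamini-Hochberg adjustment ran over all genes tested, with calls at 0.05. Level per kb used exon lengths and GC content of GENCODE release 29, matched by Ensembl identifier (97.3% of genes tested). The correction took out each library's smooth trend (spline with 5 degrees of freedom) on GC content and length. The test for differential expression used by the authors is not given in the sources used here.

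Alternatives were other scaling factors, other filters, DESeq2 1.42.0, the replicate letter as a block, the correction, 2-group fits, and each library left out. The fit without 3 libraries was added after the data were seen. Deviations of each library from its group mean were correlated across genes between libraries of different groups. Same-letter pairs ran from -0.234 to 0.589, with 8 of 15 over 0.1, and pairs of different letters from -0.62 to 0.512. The letters were not taken as pairs in the fit without covariates, and served as a block in an alternative. Libraries within groups differed by more than sampling noise. The fits were tested on simulated data.

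Members and lists were chosen with earlier results of these data known. One member is not reported here, and counts of members leave it out. All others were accounted for. Values per library were given for chains called in OIS with an absolute change of 1 or more on the log2 scale and 5 CPM or more, or called in a knockdown; ITGA6, ITGA1 with shRNAs, LAMA4 and ITGBL1 were shown in addition after their values were seen, as were the promoter motifs.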

Additional observations from a re-analysis of the deposited data

How the results depend on the processing

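In OIS, 16 to 21 chains were called over the 22 alternatives against 17 (19 with the replicate block), with 16 to 18 when 1 library was left out. Over these alternatives 6735 to 9717 genes were called, out of different numbers tested. The lowest count was out of 12483 genes (1 CPM in 6 libraries) and the highest out of 15284 (the GC content and length correction). With no filter beyond 1 count it was 7806 of 31672. Of the members' changes, 0 changed sign after being called. LAMB3 and ITGA5 lost their calls in 3 alternatives each. With shXPO7_3, 0 chains were called, but 4 after the GC content and length correction, 4 with it and the replicate block, and 1 by DESeq2. These 3 alternatives called 356, 378 and 82 of all 15284 genes. Leaving out 1 library gave 0 to 0 chains. With shXPO7_5, 1 chain was called, beside 90 of all 15284 genes. Counts for all genes follow in brackets. There were 3 chains with no filter beyond 1 count (217 of 31672), 3 by DESeq2 (433) and 4 after the correction (475). There were 7 with the correction and the replicate block (965), 2 with the replicate block alone (149) and 0 in the 2-group fit (10 of 14503). The fit without the 3 libraries of strongest GC trend holds 1 library of shXPO7_5/4OHT, and its calls are not counted here. Leaving out 1 library gave 0 to 9 chains with shXPO7_5. The highest was without replicate A of shXPO7_5/4OHT, where 3634 of 15790 genes were called. The cause of these differences was not tested. Between the shRNAs 0 chains were called under each alternative. With 3 libraries per group the confidence intervals given set the precision, and values of chains under 1 CPM rest on few counts.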
